A study of Rattus norvegicus with 79 samples.

Results

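The 4 genes described here are the corticosteroid receptors Nr3c1 and Nr3c2, the corticosterone-regenerating enzyme Hsd11b1 and the hormone-induced kinase Sgk1, measured in the CA1 field of the rat hippocampus. They were chosen as all probe sets whose symbol in the array's probe-to-gene table is one of those 4, which gave 7 probe sets out of the 7006 that carry a single symbol, or 4 of 4736 genes. Nr3c1 has 3 probe sets (M14053_at, rc_AA893618_s_at and rc_AI137538_at), Nr3c2 has 2 (M36074_at and M36074_g_at), Sgk1 has L01624_at and Hsd11b1 has rc_AI105448_at. A probe set is a group of short oligonucleotides that together report 1 transcript. Of the 7, 6 were bright enough to be tested, since the dimmest 40% by mean signal were set aside, and rc_AI137538_at was not.

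Each of 79 male Fischer-344 rats gave 1 array. The 19 young rats were 3 months old: 3 cage controls that never entered the water maze, 6 yoked rats that swam with no platform to find, 4 trained to a visible platform and 6 trained to a hidden platform. The 60 aged rats were 24 months old: 5 cage controls, 8 yoked, 8 visible, 13 hidden-platform learners scored as unimpaired, 10 scored as impaired, and 16 hidden-platform rats marked with a letter B that the labels do not explain. All were killed 24 hours after their last trial, so a transcript that rose and fell again within the day after swimming would not be seen, and RNA came from punches of the CA1 cell layer after 2 rounds of amplification. A punch holds several cell types, so fewer cells of a type and less RNA per cell cannot be told apart. The yoked and cage groups separate swimming itself from learning a place.

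Corticosterone, the rat's main stress steroid, acts in hippocampal neurons through a pair of nuclear receptors. The mineralocorticoid receptor (Nr3c2) binds it with high affinity and is largely occupied at rest, whereas the glucocorticoid receptor (Nr3c1) has lower affinity and fills as the hormone rises with stress. Hsd11b1 regenerates active hormone inside the cell from its inert keto form, and Sgk1 encodes a kinase that activated receptors induce; both receptors wait in the cytoplasm in complexes with the chaperone Hsp90 and its partner proteins.

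Array quality differed between rats, and it touches several results. Each array was correlated with every other (Spearman), and on 14 arrays the median of these values was under 0.85, down to 0.223, where the typical array had 0.920. They were 2 of 3 young cage, 2 of 4 young visible, 1 of 6 young hidden, 1 of 5 aged cage, 1 of 8 aged yoked, 4 of 8 aged visible, 1 of 13 unimpaired and 2 of 10 impaired arrays, with 0 of 6 young yoked and 0 of 16 B arrays. They are called low-correlation arrays below, and the results that rest on them are given without them too. The tissue label was borne out in part by CA1 and pyramidal neuron markers: Nrgn, Hpca, Cck and Snap25 stood at percentiles 99.6, 99.1, 95.5 and 91.4 of mean signal over all probe sets, while Syt1, Camk2a and Slc17a7 stood at percentiles 21.5, 38.3 and 9.54.

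Nr3c1, the glucocorticoid receptor gene, gave different pictures on its probe sets. On M14053_at (mean signal 196), the young cage rats had signals of 362, 406 and 407. The aged cage rats had 172, 92.7, 105, 71.9 and 122 on the same probe set. These cage groups did not overlap, but the same was true of 20.7% of all 5244 probe sets tested, and 2 of the 3 young cage arrays were of low correlation. The young yoked rats ran from 87.5 through a median of 209 to 265, so every one of them lay below every young cage rat, as was the case in either direction for 6.14% of the probe sets tested. Young visible rats had 203, 207, 60.1 and 402, and young hidden rats ran from 111 through a median of 197 to 371.

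On M14053_at each group of aged rats that swam overlapped each group of young rats that swam. The aged yoked group ran from 96.3 through a median of 126 to 289.9, the aged visible group from 97.9 through 233 to 352, and the unimpaired group from 50.9 through 139.5 to 243. The impaired group ran from 103 through 189 to 1016 and the B group from 100.1 through 171 to 231. The value of 1016 belongs to impaired rat 8, a low-correlation array, and without rats 8 and 83 the highest impaired signal was 224.

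The age difference of M14053_at, adjusted for treatment over 44 aged and 19 young rats, was -0.38 ± 0.20 (SE) on the log2(signal + 15) scale, with a limma adjusted p of 0.262, and 11 of 44 aged rats lay above the young mean of their treatment. Leaving out the low-correlation arrays gave -0.46 ± 0.15 with an adjusted p of 0.034, in a fit where 13.9% of all probe sets passed. With all arrays, aged minus young was -1.72 among rats kept in the cage, -0.31 after yoked swimming, 0.19 with a visible and -0.23 with a hidden platform. Without the low-correlation arrays the visible means were 7.45 in 4 aged and 7.78 in 2 young rats, so the sign there turned. With all arrays, the F test of whether the age difference depended on treatment had an unadjusted p of 0.030 and an adjusted p of 0.287. In that comparison 0.305% of all probe sets passed. Young yoked minus cage was -1.07 ± 0.47 (adjusted p = 0.245) and aged visible minus cage was 0.87 ± 0.38 (adjusted p = 0.437). Without the low-correlation arrays the aged visible mean was 7.45 and the aged cage mean 7.07.

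The brighter Nr3c1 probe set, rc_AA893618_s_at (mean signal 644), had its highest group mean in young hidden rats. Young hidden rats ran from 602 through a median of 765 to 974.8, and young yoked rats from 340.4 through 472 to 537. All 6 young hidden rats thus lay above all 6 young yoked rats, a separation that 0.191% of probe sets, 10 of 5244, showed in either direction. The log2 difference was 0.76 ± 0.27 (SE), but with an unadjusted p of 0.0099 it did not pass the limma test over all probe sets, where its adjusted p was 0.999 and 0% passed, with 93 at an unadjusted p under 0.05. It was 0.76 ± 0.21 without the low-correlation arrays (adjusted p = 0.919). The young cage rats had 324, 405 and 705 and the young visible rats 327, 419, 685 and 512, so each of these groups reached into the range of the hidden rats.

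In aged rats the ranges of the yoked and all 3 hidden groups overlapped on rc_AA893618_s_at. Aged cage signals were 429.9, 311, 738, 1189 and 921, and aged yoked signals ran from 363 through 558 to 818. Aged visible signals ran from 209 through 572 to 1255. Unimpaired rats ran from 489 through 653 to 905, impaired rats from 256 to 660.5 with the middle pair at 555 and 581, and B rats from 535 through 773 to 1138. Aged hidden minus yoked, which takes unimpaired and impaired rats together and leaves out B, was 0.04 ± 0.22 (adjusted p = 0.999). Its mean log2 values were 9.17 in yoked, 9.40 in unimpaired and 9.01 in impaired rats, and B rats had 9.63. The F test of age by treatment gave an unadjusted p of 0.0906 (adjusted p = 0.434). It takes cage, yoked, visible and hidden rats together, so a difference between the ages in the hidden minus yoked step alone was not tested.

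**Figure D1:**
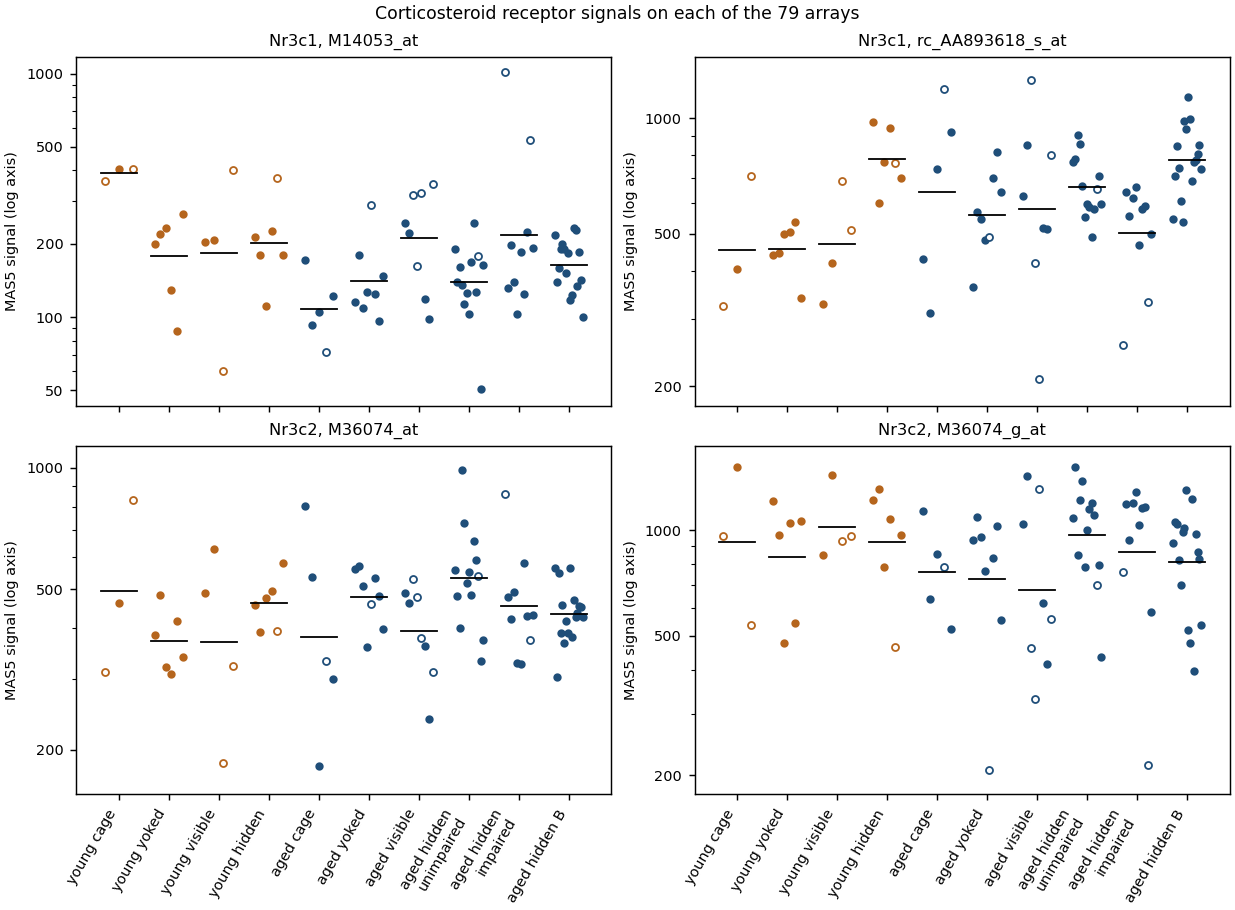
MAS5 signals on a log axis for both receptor genes in each of the 10 groups, 1 point per array, young rats in brown and aged rats in blue, with open circles for the 14 low-correlation arrays and a bar at the mean of log2(signal + 15) turned back to signal. On M14053_at the 3 young cage arrays lie at 362 to 407 above all aged cage arrays, and on rc_AA893618_s_at the young hidden arrays lie above the young yoked ones.

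In B minus impaired rats, Nr3c1 rose on rc_AA893618_s_at by 0.62 ± 0.19 (SE) on the log2 scale (limma adjusted p = 0.030), and 16 of 16 B rats lay above the impaired mean. In that comparison 12.0% of all probe sets passed, and 5.80% rose. Without impaired rat 8 the difference was 0.51 (adjusted p = 0.0998), and without impaired rat 83 it was 0.55 (adjusted p = 0.082); both are low-correlation arrays and the 2 lowest of their group on this probe set. Without all low-correlation arrays it was 0.43 ± 0.15 (adjusted p = 0.056). The other tested probe set of the gene, M14053_at, differed by -0.37 ± 0.24 (adjusted p = 0.276), the opposite sign, and by 0.05 ± 0.18 without the low-correlation arrays.

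The third Nr3c1 probe set, rc_AI137538_at, was dim (mean signal 38.1, percentile 10.3 of all probe sets). It ran from 5.10 to 370, with medians of 18 to 41.5 in the groups of 6 or more rats, and its highest value was aged cage rat 98. Tested without the filter, its smallest adjusted p in the comparisons named above was 0.104, for B minus impaired rats (-0.65 ± 0.31).

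The probe sets of Nr3c1 did not follow each other from rat to rat. Over the 65 arrays of higher correlation, Spearman's rho between M14053_at and rc_AA893618_s_at was -0.15, and over all 79 it was -0.24. For Nr3c2 the rho between M36074_at and M36074_g_at was 0.34 over 65 arrays and 0.23 over 79. These points share array, depth of hybridisation and amplification, and the values are given as descriptions. A statement about either receptor gene therefore holds for the probe set named with it.

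**Figure D2:**
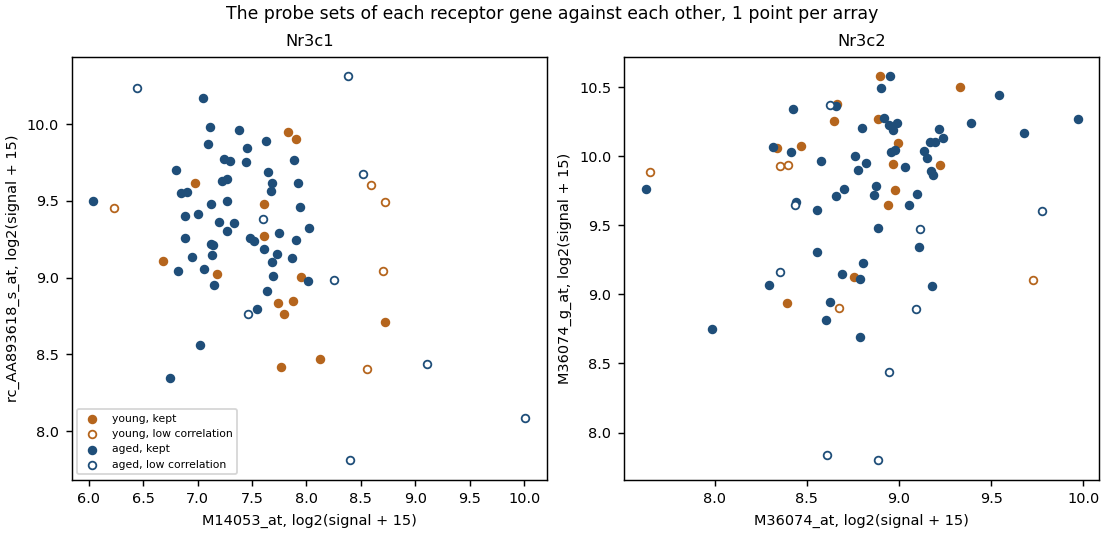
Log2(signal + 15) of the 2 brighter probe sets of Nr3c1 (left) and of the 2 probe sets of Nr3c2 (right), 1 point per array, with open circles for low-correlation arrays. The Nr3c1 points show no upward trend (rho -0.24 over 79 arrays) and the Nr3c2 points a weak one (rho 0.23).

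Nr3c2, the mineralocorticoid receptor gene, passed the test in no comparison on either probe set, and its lowest unadjusted p over all 14 differences was 0.074. On M36074_g_at (mean signal 902), young cage rats had 963, 1514 and 536, and aged cage rats had 1136.5, 635, 854, 788 and 523. Young yoked rats ran from 476 through 1010.45 to 1209, young hidden rats from 464 through 1024 to 1314, and young visible rats had 849, 1435, 931 and 966. The aged yoked group ran from 208 through 884 to 1087 and the aged visible group from 331 through 589 to 1431. Every group overlapped every other on this probe set. Unimpaired rats ran from 436 through 1087 to 1515, impaired rats from 213 through 1095 to 1286, and B rats from 398 through 891 to 1300.1.

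The age difference of Nr3c2 was -0.22 on M36074_g_at with a 95% interval of -0.56 to 0.13, and 0.10 on M36074_at with an interval of -0.17 to 0.37. Impaired minus unimpaired was -0.17 (interval -0.71 to 0.38) on the first and -0.22 (interval -0.63 to 0.18) on the second. Swimming alone, aged yoked minus cage, gave -0.07 (interval -0.81 to 0.67) and 0.32 (interval -0.22 to 0.87). The intervals reach to either side of 0, so no difference is shown and none is shown to be absent. The dimmer M36074_at ran from 182 in aged cage rat 98 to 987 in an unimpaired rat, and its group means spanned 0.51 on the log2 scale.

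The balance of the receptor pair, log2 of Nr3c2 minus log2 of Nr3c1 within each rat on their brighter probe sets, is a description that can be compared between groups, but its sign means nothing because the probe sets are not on a common scale. It was highest in young visible rats (1.10 ± 0.56, SD, n = 4) and lowest in B rats (0.06 ± 0.64, n = 16). Young yoked rats stood at 0.85 ± 0.71 and young hidden rats at 0.24 ± 0.59. Impaired rats stood at 0.77 ± 0.58 and unimpaired rats at 0.54 ± 0.50, a gap smaller than either SD. With M14053_at in place of rc_AA893618_s_at the lowest group was young cage, at 1.21. With M36074_at in place of M36074_g_at the highest group was young cage, at 0.12. Young visible rats then stood at -0.33, and B rats were again lowest, at -0.81. The order of the groups thus depends on the probe set of either gene. Of the 4 young visible arrays 2 are of low correlation, and the balance is not given without them.

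Hsd11b1 had the brightest probe set of the 4 genes (mean signal 2006, percentile 91.8) and also passed in no comparison. Its group means spanned 0.44 on the log2 scale, the narrowest range of the 7 probe sets. Young yoked rats ran from 1779 through a median of 2080.4 to 2421 and young hidden rats from 1132 through 2006 to 2496.5. Young cage rats had 2254.5, 2787 and 1190.4, and young visible rats had 2446, 2366, 1416 and 2314.

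In the 60 aged rats Hsd11b1 ranged more widely, from 566 to 3724, than in the 19 young ones, from 1132 to 2787. Aged cage signals were 2093, 3040, 916, 1089 and 2129.8, aged yoked signals ran from 1044 through 1887 to 3724, and aged visible signals from 566 through 1751 to 2351. Unimpaired rats ran from 1204.5 through 2013 to 3506, impaired rats from 1002 through 1856 to 3196.5, and B rats from 1105.5 through 2187 to 3282. The ranges of all 10 groups overlap. The age difference was -0.13 (95% interval -0.44 to 0.17), impaired minus unimpaired was -0.29 (interval -0.78 to 0.21) and aged yoked minus cage was 0.26 (interval -0.41 to 0.93).

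Sgk1, the receptor-induced kinase, had over all arrays its lowest group means in the cage controls of both ages and its highest in unimpaired and B rats. Aged cage signals were 467, 238, 358.5, 101 and 588, and aged yoked signals ran from 331 through 537 to 773. Aged visible rats ran from 253 through 322 to 875, unimpaired rats from 369 through 556 to 1018, impaired rats from 90.2 through 357 to 778, and B rats from 317 through 622.5 to 1242. The groups overlap, and the lowest values, 101 in aged cage rat 99 and 90.2 in impaired rat 8, are from low-correlation arrays. So are the young cage values of 198 and 201, and the 1 young cage rat left, at 552, lay above the mean of each young group that swam. In aged rats the cage mean stayed the lowest without those arrays (8.67 on the log2 scale). Young cage rats had 201, 552 and 198 against 315 through 506 to 744.5 in young yoked rats; young visible rats had 460.1, 575, 419 and 114, and young hidden rats ran from 285 through 390.5 to 789.9.

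Swimming without a platform, yoked minus cage, gave a Sgk1 log2 difference of 0.82 ± 0.37 (SE) in aged rats, with all 8 yoked rats above the cage mean, an unadjusted p of 0.030 and a limma adjusted p of 0.496. It was 0.55 ± 0.30 without the low-correlation arrays (adjusted p = 0.378). In young rats yoked minus cage was also 0.82, with a SE of 0.47 (adjusted p = 0.355), but -0.12 ± 0.53 without the low-correlation arrays, which leaves 1 cage rat. Young hidden minus yoked was -0.23 ± 0.38. Aged hidden minus yoked, which takes unimpaired and impaired rats together and leaves out B, was -0.24 ± 0.26, and it averages unlike groups: the mean log2 value was 9.12 in yoked, 9.20 in unimpaired, 8.56 in impaired and 9.24 in B rats. The summed signal of 7 oligodendrocyte marker genes ran from 7026 to 26975 in aged cage rats and from 5688 to 31610 in aged yoked rats, with 0 of 7 markers passing and a median difference of 0.65, against 0.13 over all 3233 genes; no marker was at 0, and their part in the Sgk1 values was not tested.

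Impaired minus unimpaired rats gave a Sgk1 log2 difference of -0.64 ± 0.27 (SE), with 3 of 10 impaired rats above the unimpaired mean, an unadjusted p of 0.021 and an adjusted p of 0.327. Without the low-correlation arrays it was -0.37 ± 0.22 (adjusted p = 0.452). B rats stood beside unimpaired rats (0.04 ± 0.22 on the log2 scale), and Sgk1 rose from impaired to B rats by 0.69 ± 0.24 (adjusted p = 0.049), with 15 of 16 B rats above the impaired mean. That call was lost when any 1 of 19 of the 26 arrays was left out; without impaired rat 8 it was 0.48 (adjusted p = 0.178) and without all low-correlation arrays 0.36 ± 0.21 (adjusted p = 0.248).

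Markers of other cells moved in the same comparison. From impaired to B rats the interneuron genes Sst (0.90 ± 0.24) and Npy (0.67 ± 0.21) rose, and the vascular genes Pecam1 (-1.38 ± 0.32) and Kcnj8 (-1.07 ± 0.33) and the marker Cdh8 (-0.62 ± 0.20) fell. That was 2 of 5 tested interneuron, 2 of 6 vascular and 1 of 5 dentate and CA3 markers. Summed interneuron signal ran from 2797 to 7718 in impaired and from 4592 to 9199.5 in B rats, and summed vascular signal from 2091 to 5735 and from 1494 to 5095. Leaving out the low-correlation arrays, 0 of 5 interneuron and 0 of 5 dentate and CA3 markers passed, 1 of 6 vascular markers fell, and 1 of 4 CA1, 1 of 4 microglial and 1 of 7 oligodendrocyte markers rose, where 9.34% of all probe sets passed. No marker was at 0 on any array, and the part of these cells in the Sgk1 and Nr3c1 values was not tested.

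**Figure D3:**
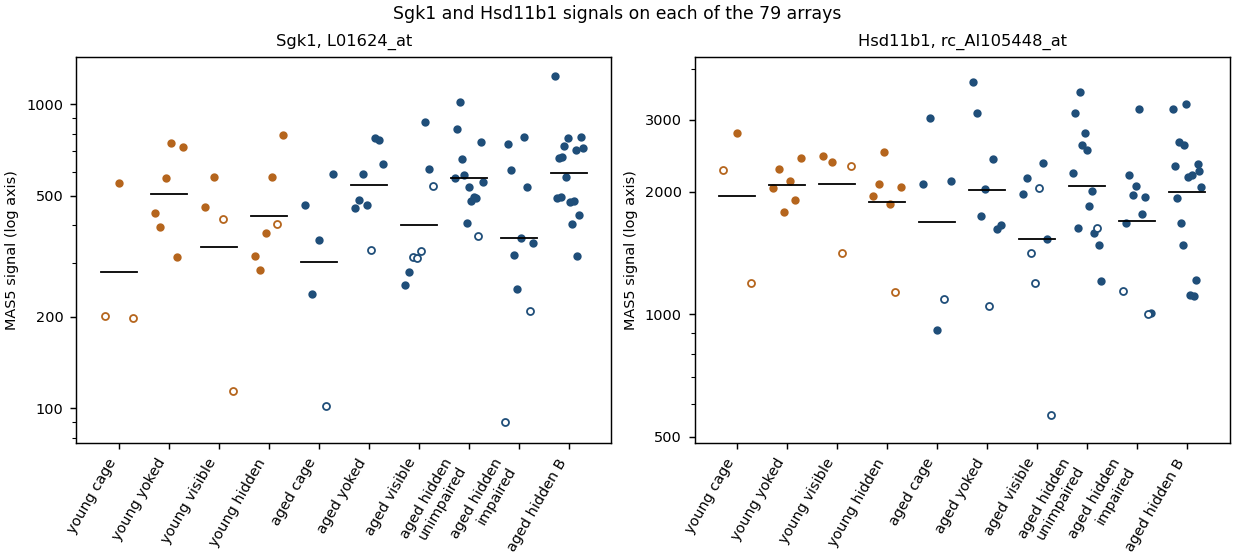
MAS5 signals of Sgk1 (left) and Hsd11b1 (right) on a log axis in each of the 10 groups, 1 point per array, drawn as for the receptors. Sgk1 is lowest on low-correlation arrays (90.2 in impaired rat 8, 101 in aged cage rat 99), and all Hsd11b1 groups overlap.

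Ordered by group mean, no probe set had neighbouring groups that differed by more than the larger of their SDs, in 0 of 9 neighbouring pairs each. The span from lowest to highest group mean was 1.72 for M14053_at, 1.03 for Sgk1, 0.87 for rc_AI137538_at, 0.77 for rc_AA893618_s_at, 0.59 for M36074_g_at, 0.51 for M36074_at and 0.44 for Hsd11b1, all on the log2 scale. For Sgk1 the order from low to high was young cage, aged cage, young visible, impaired, aged visible, young hidden, young yoked, aged yoked, unimpaired and B. The first place of young cage rests on its low-correlation arrays. For rc_AA893618_s_at it was young cage, young yoked, young visible, impaired, aged yoked, aged visible, aged cage, unimpaired, B and young hidden.

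Counted over the 15 comparisons with limma (adjusted p under 0.05), the 6 tested probe sets gave 2 calls, both between B and impaired rats, as described. In the age comparison 0 of 6 passed, where 5.13% of all probe sets did, and 0 of 6 had an unadjusted p under 0.05, where 20.8% did. For the other comparisons 0 of 6 member probe sets passed as well. In aged rats, 0.0191% of all probe sets passed for yoked minus cage and for hidden minus visible. For visible minus cage, hidden minus cage, hidden minus yoked and impaired minus unimpaired, 0% passed, with 501, 449, 155 and 677 probe sets at an unadjusted p under 0.05. For B minus unimpaired it was 0.0572%. At the unadjusted level 2 of 6 member probe sets were found for impaired minus unimpaired, where the share of all probe sets was 12.9%. For yoked minus cage and visible minus cage it was 1 of 6 each, where the share was 9.06% and 9.55%. For the hidden comparisons with cage, yoked and visible rats and for B minus unimpaired it was 0 of 6.

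In young rats the same count was 0 of 6 in each comparison. The background there was 0.0953% for yoked minus cage, 5.28% for hidden minus cage and 0% for visible minus cage, hidden minus yoked and hidden minus visible, with 464, 93 and 274 probe sets at an unadjusted p under 0.05. At that unadjusted level 1 of 6 member probe sets was found for each of yoked minus cage, hidden minus cage, hidden minus yoked and hidden minus visible, where the share of all probe sets was 17.7%, 23.8%, 1.77% and 5.23%. For the former pair 1 of 6 is close to that share. The first of these was M14053_at and the other 3 were rc_AA893618_s_at (0.77 ± 0.33, 0.76 ± 0.27 and 0.72 ± 0.30). Those 3 share the young hidden arrays.

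**Figure D4:**
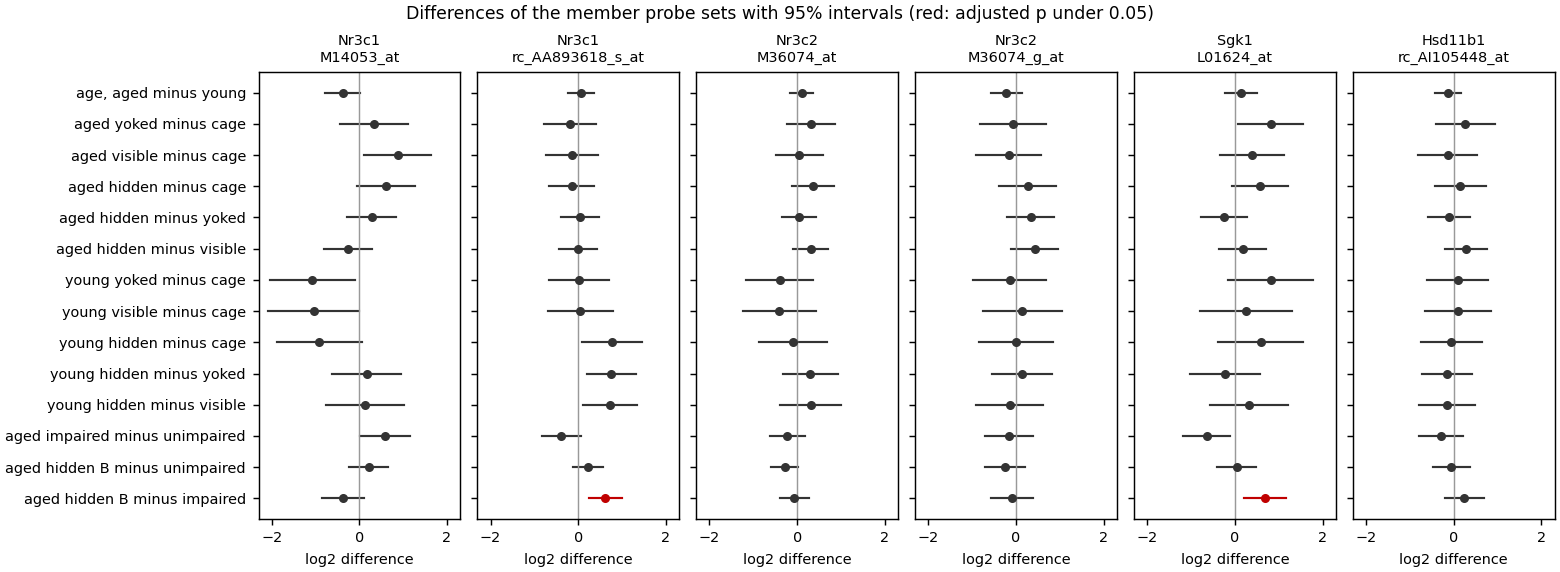
Log2 differences of the 6 tested member probe sets in 14 comparisons, with 95% intervals from the limma fits, in red where the adjusted p is under 0.05. The red points are rc_AA893618_s_at and Sgk1 in B minus impaired rats (0.62 and 0.69), and the Nr3c2 and Hsd11b1 intervals cross 0 throughout.

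Transcripts of 4 proteins that work in receptor complexes changed with age, in a comparison where no receptor, Hsd11b1 or Sgk1 probe set passed. Of a list of 30 chaperones and partners, 17 are on the array and 13 were tested, and 3 rose and 1 fell in aged rats. Over all genes, 2.38% rose and 2.29% fell. The median difference of the list was 0.03 against -0.06 over all 3233 genes. The changed genes were Ppp5c, a phosphatase that binds Hsp90 in receptor complexes, Stip1, which passes clients from Hsp70 to Hsp90, Fkbp4, an immunophilin that promotes receptor transport, and Ppid, a cyclophilin of the same complexes.

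Ppp5c rose by 0.94 ± 0.24 (SE, adjusted p = 0.013), with 38 of 44 aged rats above the young mean of their treatment. Its median signal was 25.3 in young cage, 111 in young yoked, 164 in young visible and 177 in young hidden rats, against 259.7, 271, 217 and, for unimpaired and impaired rats, 231 and 224. The difference was 2.49 in cage, 1.06 in yoked, 0.58 in visible and 0.45 in hidden rats. It was thus largest in cage controls, where 2 of the 3 young arrays are of low correlation. Without those arrays Ppp5c rose by 1.02 ± 0.22 (adjusted p = 0.0015).

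Stip1 rose by 0.79 ± 0.25 (adjusted p = 0.046, 35 of 44 aged rats above) and by 1.06 ± 0.24 without the low-correlation arrays. Fkbp4 rose by 0.52 ± 0.16 (adjusted p = 0.0499, 35 of 44 above) on its brightest probe set, and by 0.65 ± 0.13 without those arrays. On a second probe set, rc_AI136977_g_at, Fkbp4 rose by 1.38 ± 0.21 (adjusted p = 6.5e-05, 42 of 44 above). Ppid fell by 0.52 on the log2 scale, with a SE of 0.16 (adjusted p = 0.034, 33 of 44 aged rats below). Its median signal was 1801 in young cage and 833 in aged cage rats, but 959 in young hidden and 977 in unimpaired rats. The Ppid difference was -1.19 in cage, -0.74 in yoked, -0.33 in visible and -0.21 in hidden rats. Stip1 (1.80 in cage, 0.25 in hidden rats) and the brightest Fkbp4 probe set (0.90 and 0.30) also differed most in cage rats. Of the young cage arrays 2 of 3 are of low correlation, and the young visible and young hidden groups hold such arrays too. Without the low-correlation arrays Ppid fell by 0.50 ± 0.14 (limma adjusted p = 0.014). Scaling by quantiles or by array medians took the calls of Ppp5c, Stip1, Fkbp4 and Ppid away and kept their directions (adjusted p between 0.062 and 0.194). The range of animal numbers as a block also ended those of Stip1 (0.63, adjusted p = 0.149), Fkbp4 (0.47, adjusted p = 0.113) and Ppid (-0.36, adjusted p = 0.174), as did testing without the filter (adjusted p of 0.071, 0.084 and 0.056); Ppp5c kept its call in both. Leaving out 1 array at a time kept the call in 63 of 63 cases for Ppp5c, 53 for Ppid, 30 for Stip1 and 23 for Fkbp4.

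In the other comparisons 0 of 13 chaperones and partners passed. In aged yoked minus cage rats the median was 0.01 against 0.13 over all genes, and in impaired minus unimpaired rats it was -0.10 against 0.00, with the smallest p for Ywhah (-0.71 ± 0.45), Dnaja1 (-0.54 ± 0.38) and Cdc37 (-0.48 ± 0.34), all with an adjusted p of 0.441 or more. From impaired to B rats 0 of 13 passed with all arrays. Without the low-correlation arrays Hsp90ab1 on rc_AI236795_s_at (-0.73 ± 0.16, adjusted p = 0.0039) and the orphan nuclear receptor Nr2f1 (-0.68 ± 0.21, adjusted p = 0.030) fell. With all arrays, 6 of 16 B rats lay above the impaired mean on that Hsp90ab1 probe set. On its other probe sets it was 14 (rc_AI008074_s_at), 11 (S45392_at) and 10 (rc_AI007820_s_at) of 16. These counts include the low-correlation arrays, so they do not show how the other probe sets differ without them. The fall is stated for the probe set named only.

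Other members of the list gave values that depend on the probe set. Cdc37, which brings kinases to Hsp90, differed by 0.10 on its brightest probe set and by 1.53 ± 0.33 (adjusted p = 0.0027) on the dimmer D26564_at. Hsp90ab1 itself, with 4 probe sets, differed by 0.02 to 1.08, the last with an adjusted p of 0.0502. In the same age comparison the microglial genes C3 (1.25 ± 0.23) and C1qb (1.25 ± 0.23) and the astrocyte gene Aqp4 (0.96 ± 0.23) rose and Sst (-0.67 ± 0.21) fell. That is 2 of 4 microglial, 1 of 6 astrocyte and 1 of 5 interneuron markers tested; without the low-correlation arrays 3 of 6 astrocyte and 2 of 4 microglial markers rose, 1 of 5 interneuron markers rose and 3 fell, 1 of 5 dentate and CA3 markers fell, and 1 of 7 oligodendrocyte markers rose and 1 fell. Summed microglial signal ran from 1887 to 8698 in young and from 2028 to 11033 in aged rats, astrocyte signal from 4681 to 38599 and from 4589 to 58237, and interneuron signal from 4056 to 27246 and from 2797 to 13797. No marker was at 0, and the part of these cells in the chaperone values was not tested.

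**Figure D5:**
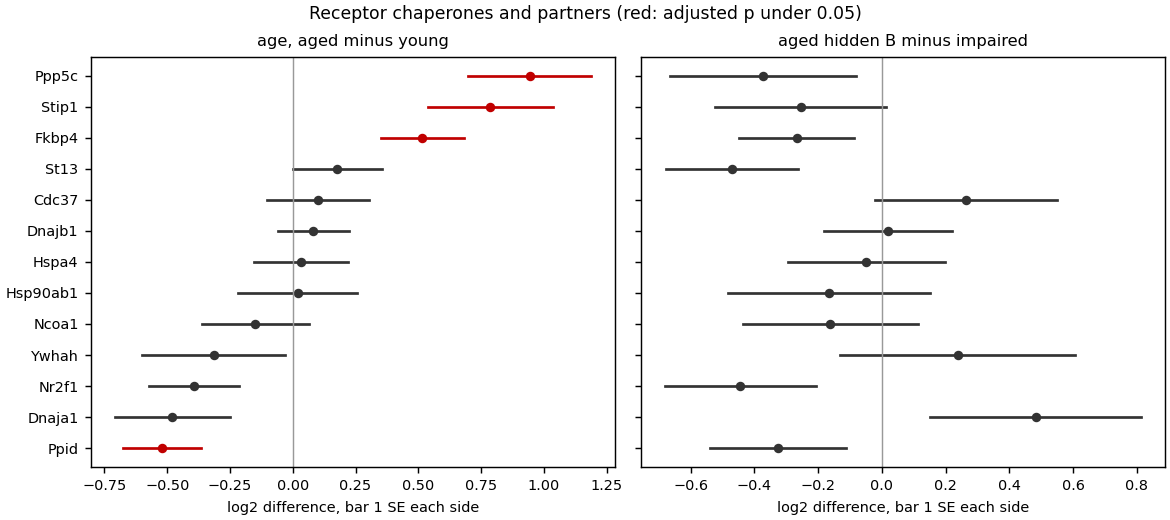
Log2 differences of the 13 tested chaperones and partners, 1 probe set per gene, with bars of 1 SE each side, for age (left) and for B minus impaired rats (right), red where the adjusted p is under 0.05. With age Ppp5c, Stip1 and Fkbp4 lie to the right and Ppid to the left, and no point is red for B minus impaired rats. Without the low-correlation arrays the drawn probe sets of Hsp90ab1 (rc_AI236795_s_at) and Nr2f1 fell in that comparison.

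Of 44 genes known as glucocorticoid-induced, 23 are on the array and 17 were tested. With age 0 rose and 0 fell by limma, with 2 of 17 at an unadjusted p under 0.05, where 20.8% of all probe sets were: Dusp1, a phosphatase that shuts off MAP kinases (-0.51 ± 0.21, adjusted p = 0.126), and Sult1a1 (0.25 ± 0.11, adjusted p = 0.176). The median was 0.05 against -0.06 over all genes. Without the low-correlation arrays 2 rose, Mgst1 (0.50 ± 0.13) and Ndrg2 (0.51 ± 0.15), and 1 fell, Dusp1 (-0.58 ± 0.20), so 3 of 17 passed where 13.9% of all probe sets did. In aged yoked minus cage rats 0 of 17 passed, and the smallest p belonged to Camk2n1 (-1.38 ± 0.60, adjusted p = 0.471), Nfkbia (-0.92 ± 0.46) and Txnip (0.37 ± 0.27). Their signs are mixed, and the list median was 0.04 against 0.13 over all genes.

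In impaired minus unimpaired rats 0 of 17 glucocorticoid-induced genes passed, and the smallest p were those of Mgst1 (-0.59 ± 0.24, adjusted p = 0.322), Scnn1g (0.78 ± 0.35) and Bcl2l1 (0.61 ± 0.38). From impaired to B rats 1 of 17 rose and 0 fell, where 6.68% of all genes rose and 5.57% fell. It was Camk2n1, an inhibitor of the kinase CaMKII (1.12 ± 0.39, adjusted p = 0.048, and 1.30 ± 0.40 without the low-correlation arrays), whose signal ran from 29.4 through 91.3 to 487 in impaired and from 64.5 through 275 to 737 in B rats. The Camk2n1 call was lost with the range of animal numbers as a block (0.86, adjusted p = 0.107), with a spike-in or 3'/5' covariate (adjusted p = 0.162 and 0.062), in 1 fit over 79 arrays (0.073) and with a pseudocount of 1 (0.052), and it was kept in 9 of 26 fits that left out 1 array. These counts take only the brightest probe set of each gene. For Klf9, 16 of 16 B rats lay above the impaired mean on D12769_at and 15 of 16 on D12769_g_at. For Atp1b1 it was 16 of 16 on rc_AI230614_s_at and 10 of 16 on rc_AI112173_at. The impaired mean in these Klf9 and Atp1b1 counts includes the low-correlation arrays of rats 8 and 83, so the counts alone do not show a rise. In young hidden minus cage rats 1 of 17 rose and 0 fell, where 3.46% of all genes rose and 0.835% fell. That gene was Ndrg2 (3.50 ± 0.77, adjusted p = 0.018), from 47.6, with a median of 814, to 2588 in the cage rats against 3049 to 7770 in hidden rats; without the low-correlation arrays, which leaves 1 cage rat, it was 1.34 (adjusted p = 0.327). With the range of animal numbers as a block it was 0.46 (adjusted p = 0.998), and with the 3'/5' ratio as a covariate 1.90 (adjusted p = 0.999). The astrocyte marker Aldoc (3.16 ± 0.87) and the oligodendrocyte marker Mbp (4.70 ± 1.01) rose and the endothelial marker Slc2a1 (-2.33 ± 0.58) fell in that comparison, which is 1 of 6, 1 of 7 and 1 of 6 tested, and 0 of each without those arrays. Summed oligodendrocyte signal ran from 5394 to 7006 in cage and from 5441 to 22787 in hidden rats, astrocyte signal from 4681 to 34547 and from 16926.5 to 38599, and vascular signal from 5299.5 to 10514 and from 1720 to 4438; their part in the Ndrg2 value was not tested.

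Of 33 genes of steroid synthesis, transport and the stress-hormone axis, 25 are on the array and 12 were tested. With age 0 passed by limma; the smallest p were those of Crhbp, which binds and buffers corticotropin-releasing hormone (-0.47 ± 0.19, adjusted p = 0.126), Tspo, a mitochondrial cholesterol-binding protein (0.37 ± 0.18, adjusted p = 0.236), and Hsd17b10 (0.23 ± 0.14). Crhbp and Tspo were at an unadjusted p under 0.05. Without the low-correlation arrays Crhbp fell (-0.47 ± 0.14, adjusted p = 0.022). In aged yoked minus cage rats 0 of 12 passed, and the smallest p were those of Oxt (-0.81 ± 0.55), Avp (0.62 ± 0.49) and Cyp21a1 (0.67 ± 0.57), all with an adjusted p of 0.669 or more.

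From impaired to B rats 5 of 12 steroid-axis genes fell, where 5.57% of all genes fell. The median over the 12 tested genes was -0.48 against 0.02 over all genes. The genes that fell were Crhbp (-1.01 ± 0.28, adjusted p = 0.015), the steroid-reducing aldo-keto reductases Akr1c14 (-1.48 ± 0.40) and Akr1c3 (-1.02 ± 0.29), the progesterone receptor Pgr (-0.99 ± 0.32) and Cyp11b2, the aldosterone synthase (-1.45 ± 0.50). Crhbp ran from 234 through 378 to 1023 in impaired and from 88.8 through 180.15 to 358 in B rats, and 0 of 16 B rats lay above the impaired mean. Cyp11b2 had a median of 86.5 in impaired and 23.6 in B rats, near the bottom of the array's signals. Adding each array's spike-in level to the fit left 0 of the 5 calls (adjusted p of 0.095 for Crhbp, 0.123 for Akr1c14, 0.144 for Akr1c3, 0.210 for Pgr and 0.245 for Cyp11b2). Median centring ended the calls of Crhbp and Pgr (adjusted p of 0.072 and 0.062), quantile scaling those of Crhbp, Pgr and Cyp11b2 (0.077, 0.079 and 0.070), and leaving out 1 array at a time kept Cyp11b2 in 12 and Pgr in 18 of 26 fits. Without the low-correlation arrays 3 fell: Crhbp (-0.79 ± 0.20), Akr1c14 (-1.18 ± 0.32) and Akr1c3 (-0.63 ± 0.21). In that fit 9.34% of all probe sets passed in either direction. In impaired minus unimpaired rats 0 of 12 passed, and the smallest p were those of Cyp11b2 (1.58 ± 0.56, adjusted p = 0.312), Pgr (1.03 ± 0.37) and Akr1c3 (0.87 ± 0.34). That comparison and the former share the impaired arrays.

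The genes whose signals followed each member most closely over the 65 arrays of higher correlation were ranked by Spearman's rho, as a description without a test over arrays that share amplification and hybridisation. For Nr3c1 on rc_AA893618_s_at they were Amd1 (0.58), Agt (0.57) and Gria3 (0.57). For Nr3c2 on M36074_g_at they were Nup58 (0.71), Gucy1b1 (0.67) and Cd200 (0.67), but over all 79 arrays the values were 0.39, 0.61 and 0.68, so the first place of Nup58 depends on the arrays left out. For Sgk1 they were Septin8 (0.48), Gyg1 (0.47) and Hsd17b12 (0.46), and for Hsd11b1 they were Cd48 (0.53), Gatm (0.51) and Cript (0.47). Among the members themselves the brighter probe sets of Nr3c2 and Hsd11b1 had a rho of 0.29, and Sgk1 had 0.16 with rc_AA893618_s_at and -0.0006 with Hsd11b1.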

How the data were processed

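The authors hybridised amplified CA1 RNA of each rat to 1 Affymetrix rat array and deposited intensity values, MAS5 signals on a linear scale, per the labels and the submitters' processing notes; detection calls were not used here. Trimmed means (2% off each side) were 500.091 to 500.975, so arrays were already scaled to a common level, and median signals ran from 99.3 to 346.65. From the deposited intensity values, log2(signal + 15) was computed; the pseudocount understates changes of dim probe sets. Of 8799 probe sets, 59 controls and the 40% with the lowest mean signal were left out, and 5244 were tested with limma 3.58.1 in R 4.3.3 (lmFit, eBayes with trend, Benjamini-Hochberg over all 5244, two-sided). Age was fitted over 63 arrays with treatment as a covariate and without B rats, and other comparisons within their own age. Genes outside the members come from 3 lists, of which those that passed are named, or else the 3 with the smallest p; a gene's brightest probe set stands for it. The members and lists were chosen with earlier results of these data known. Symbols come from GEO's platform annotation. With 1 array per rat, p-values measure the spread between rats, and the number of arrays limits the precision. The fit was tested on simulated data. Alternatives covered scaling, pseudocount, filter, covariates, array weights and left-out arrays. The alternatives for the 3 lists and markers were chosen after seeing the data.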

Additional observations from a re-analysis of the deposited data

Results flagged for a closer look

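In 49 groups of 4 to 10 rats, a member's highest or lowest array was compared with its neighbour by Dixon's criterion, and 6 stood apart, where chance alone gives about 1 in 20 groups. On Nr3c1 rc_AI137538_at, young hidden rat 39 stood high at a signal of 124.5 (gap over range 0.754) and impaired rat 83 at 200.3 (0.487). On Nr3c2 M36074_g_at, aged yoked rat 63 stood low at 207.6 (0.586) and impaired rat 83 at 213.3 (0.555). On Hsd11b1, young visible rat 30 stood low at 1416.4 (0.898) and young hidden rat 39 at 1131.7 (0.630). All 6 values come from low-correlation arrays, which are 14 of the 79.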

How the results depend on the processing

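No member value that passed the test changed direction under the alternatives run; values that did not pass could (Sgk1 in young yoked minus cage rats, 0.82 and -0.12 without the low-correlation arrays). The age comparison called 1 member probe set, M14053_at, under 1 fit over all 79 arrays (-0.51, adjusted p = 0.035), array quality weights (-0.42, adjusted p = 0.016) or without the low-correlation arrays (-0.46). Array weights also called 2 in the interaction, and 1 each in aged hidden minus visible (Sgk1, 0.66), young hidden minus cage (rc_AA893618_s_at, 1.19) and young hidden minus visible (1.01). B minus impaired called 1 in place of 2 under the 79-array fit, the 3'/5' covariate, the range of animal numbers as a block, array weights, the robust fit without trend and a pseudocount of 1. It called 0 with the spike-in covariate, without high-disagreement arrays and without low-correlation arrays, and 0 to 2 when single arrays were left out, where the other comparisons stayed at 0. Without the low-correlation arrays the list counts changed as the report gives them: 2 chaperones and 3 in place of 5 steroid-axis genes fell from impaired to B rats, and with age 1 steroid-axis gene fell, 2 glucocorticoid-induced genes rose and 1 fell. Of the neighbouring group means, 2 pairs then differed by more than the larger SD, on M14053_at and on Hsd11b1. Both set the 1 young cage rat left, which has no SD, against young visible rats, whose SD rests on 2 rats. Median centring moved the median B minus impaired difference of all probe sets from -0.03 to 0.35 and the share of calls that rose from 48.3% to 89.3% (77.0% with quantiles), and Sgk1 from 0.69 to 1.07. Calls over all probe sets ran from 77 (median centring) to 1134 for age, with 97 under quantile scaling, against 269 in the main fit. For B minus impaired they ran from 116 to 1864, against 629. No paired analysis was possible because each animal number belongs to 1 rat.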
